A study of Homo sapiens with 16 samples.

Results

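The response described here is the average effect of a drug combination over 4 human non-small cell lung cancer lines. All 8 libraries of treated cells were compared with all 8 libraries of vehicle-treated cells, with the cell line as a block, so that each line was set against its own controls. The comparison used 16 of the 16 libraries of the series and 23968 tested genes. The lines were H460 and H1703, which the series calls responsive, and HCC827 and H441, which it calls non-responsive. Treated cells received 5 µM MYCi975 together with 25 µM TMP195 for 48 hours, called the combination below. Control cells received the solvent DMSO for the same time, called vehicle. All cells grew in RPMI with 10% fetal bovine serum and were treated 1 day after plating. Each line and treatment had 2 libraries, and each line stands for a single tumour. Either compound given alone was not analysed here, so the values below cannot be assigned to one compound. The labels do not say whether both libraries of a group stem from separate cultures, so the spread between them may be technical. The p-values of the average effect measure this spread together with the spread of responses between the lines. Those for single lines and for differences among lines rest on the spread between libraries alone.

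MYCi975 is a small-molecule inhibitor of MYC, a transcription factor that pairs with MAX, binds E-boxes in promoters and drives genes of ribosome production, nucleotide synthesis and cell division. TMP195 inhibits HDAC4, HDAC5, HDAC7 and HDAC9, the histone deacetylases of class IIa, which hold MEF2 factors and other transcription factors in a repressed state. In the integrated stress response, kinases that sense amino acid shortage or misfolded protein slow translation and raise the factor ATF4, which turns on amino acid synthesis, transport and tRNA charging. Dividing cells raise a replication programme before and during S phase and a mitotic programme in G2 and M, and promoters of mitotic genes often carry a short element known as the CHR.

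The lines matched the marker genes expected of them in most cases. EGFR had 128000 to 136000 normalised reads in HCC827 and at most 5340 in the other lines, and PDGFRA had 4700 to 11400 in H1703 and at most 1.09 elsewhere. Normalised reads are the reads recovered from the deposited values, divided by the size factor of the library. NKX2-1, a lung lineage factor, had 1020 to 1760 in H441 and 403 to 1020 in HCC827. The surfactant gene SFTPB, also taken as a mark of H441, reached only 8.17 to 97.7 there. The epithelial genes CDH1 and EPCAM had at most 9.11 in H460 and H1703 and at least 2160 in HCC827 and H441. Other markers did not split the lines this way. The epithelial gene KRT18 had 3720 to 5310 in H460, 145 to 195 in H1703, 4150 to 5190 in HCC827 and 9060 to 10400 in H441. The mesenchymal genes VIM (3250 to 3890), CDH2 (462 to 587) and ZEB1 (966 to 1090) were expressed in HCC827, and CDH2 was highest there. Of 17 markers of blood, endothelial and stromal cells 10 were in the table, and their summed normalised reads ranged from 21.4 to 293 with vehicle and from 37.0 to 211 with the combination. The other 7 markers were not analysed here. In pooled RNA, fewer cells of a type and less RNA per cell cannot be told apart. The libraries held 8493271 to 13604150 reads over the listed genes. In each of them MT-RNR2, a mitochondrial ribosomal RNA, took the largest share.

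Promoter sequences are shown first for the groups that the later results turn on. They come from RefSeq (GRCh38.p14) and cover 250 bases before to 50 bases after each gene's start. The first element searched was the ATF4 element TGATGNAA, on both strands. It occurred in 6 of 16 promoters of cytosolic aminoacyl-tRNA synthetases (37.5%) and in 4 of 33 promoters of integrated stress response genes (12.1%), against 1.93% of the 13254 promoters matched to tested genes and 3.67% of all 27305 promoters. The 4 windows below belong to the members of these lists that were called higher and whose match lies wholly before the start. Each window has 60 bases, read 5′ to 3′ on the strand of the gene, with the match in capitals. ASNS lies at chr7:97872443-97872502 (minus strand, match at -68 from the start), ATF3 at chr1:212565190-212565249 (plus, -191), CHAC1 at chr15:40953236-40953295 (plus, -209) and AARS1 at chr16:70289660-70289719 (minus, -187).
ASNS: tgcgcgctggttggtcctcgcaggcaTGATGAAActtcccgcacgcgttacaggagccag
ATF3: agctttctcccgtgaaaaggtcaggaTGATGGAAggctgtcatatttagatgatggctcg
CHAC1: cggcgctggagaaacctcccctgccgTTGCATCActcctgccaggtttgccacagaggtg
AARS1: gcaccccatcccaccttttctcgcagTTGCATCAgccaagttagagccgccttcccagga

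The second element was the CHR, TTTGAA, also on both strands. It occurred in 24 of 36 promoters of the mitosis list (66.7%), against 10.4% of the promoters of tested genes and 15.4% of all promoters. In the list of replication-dependent histones it occurred in 26.3% of promoters, and in the list of replication and G1/S genes in 2.56%. The windows below are from mitotic genes that fell on average and were lower in both combination libraries of every line, chosen after their values were seen for a single match and a large fall. They encode the spindle motors KIF11 and KIF4A, separase (ESPL1), which cuts the cohesin ring, and the mitotic kinase PLK1. KIF11 lies at chr10:92593070-92593129 (match at -28 from the start), ESPL1 at chr12:53268239-53268298 (-31), PLK1 at chr16:23678829-23678888 (-29) and KIF4A at chrX:70290043-70290102 (-34), all on the plus strand. A match is only a run of letters and does not show that a factor binds there.
KIF11: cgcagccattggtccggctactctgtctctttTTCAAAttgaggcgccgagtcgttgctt
ESPL1: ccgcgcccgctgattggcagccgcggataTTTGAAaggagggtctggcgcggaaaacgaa
PLK1: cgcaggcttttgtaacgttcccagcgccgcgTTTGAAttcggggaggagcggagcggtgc
KIF4A: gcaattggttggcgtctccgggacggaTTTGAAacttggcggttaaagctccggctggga

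The first question was how much of the transcriptome moved on average, and how much of that movement was shared. With the combination, stress response, immediate early and ribosomal protein genes were among those that rose, and replication, mitosis, histone, splicing factor and cholesterol synthesis genes among those that fell. Limma called 2606 genes higher (10.9% of those tested) and 2431 lower (10.1%), at an adjusted p under 0.05 by Benjamini and Hochberg and with no minimum change. Changes are log2 differences of the deposited values, combination minus vehicle, given with the standard error (SE) of the limma fit of 16 libraries. This scale understates the change of genes with few reads. A change of at least 1 was reached by 527 of the higher and 339 of the lower genes, and the median change of all genes was 0.05. The sign was the same in all 4 lines for 1988 of the higher genes (76.3%) and 1874 of the lower genes (77.1%). Of all genes tested, 13.5% were higher by sign in all 4 lines and 11.7% lower, and a call of the average test itself favours genes with 1 sign.

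A stricter set is called common here. In it the gene passed the average test, and in each line both combination libraries lay above both vehicle libraries, or both below. It held 828 higher genes (3.45% of those tested, 31.8% of those called higher) and 924 lower genes (3.86% and 38%). A gene passed the test of its own line in all 4 lines in 121 cases for rises (0.505%) and 92 for falls (0.384%). The common set held 528 higher genes with median centring, 1285 without HCC827, and 1593 higher and 1702 lower genes without H441, where only 3 lines had to meet the rule.

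The size of the response was not equal. Taken in the order H460, H1703, HCC827 and H441, the genes called higher on average had median changes of 0.73, 0.87, 0.40 and 0.32. Those called lower had -0.63, -0.87, -0.34 and -0.18. H1703 had the largest change of the 4 lines in 48.7% of the higher and 60.7% of the lower genes, and H441 in 5.64% and 3.46%. A test of the difference among the 4 responses (limma F test of 3 interaction terms) called 7626 genes, 31.8% of those tested. It called 1296 of the genes higher on average (49.7%) and 1608 of those lower (66.1%). Among the common genes it called 422 of the higher and 635 of the lower. Without H1703 it called 3836 genes.

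These counts depend on which lines and which scaling enter. Without H1703 the counts were 1346 higher and 1309 lower, and without H460 1644 were higher. With each library centred on its median the split of 51.7% higher among the called genes became 32.0% (1610 higher, 3429 lower), since centring moved the median change by -0.113. With the 4 lines as the units, limma on the 4 differences called 0 genes (lowest adjusted p = 0.0792), while 3983 had an unadjusted p under 0.05, and limma voom on the recovered reads called 3158 higher and 3153 lower. The average p-values thus describe these 4 lines and not lung cancer lines in general.

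The next step was to see whether genes found in 3 lines also moved in the line left out. The changes of the line left out had no part in the choice. The test in that line, however, took its spread from all 16 libraries, those of the other 3 lines included. Genes picked for a small spread there can pass more easily, so the shares of calls are not independent of the choice. Of 1644 genes called higher over the other lines, 51.2% were also called higher in H460, against 14.1% of all genes. Of 1723 called lower, 59.7% were called lower there, against 12.6%. In H1703 the shares were 57.4% of 1346 (17.9% of all genes) and 75.6% of 1309 (17.6%). In HCC827 they were 20.7% of 2307 (4.42%) and 31.2% of 2162 (5.5%). In H441 they were 10.6% of 2873 (2.77%) and 7.44% of 2593 (1.86%). Calls in the opposite direction took 0.601 to 8.77% of these genes, the most in H1703 for genes higher elsewhere. Shares above those of all genes were thus seen in each line and in both directions, and the shares themselves were lowest in H441, the line with the fewest calls. Calls of the average test were more frequent at high than at low expression. All genes were not matched by level, and how much of the excess goes with level or with the shared spread was not tested. The sign of a change uses the line left out alone. By sign the shares ran from 68.4% (47.4% of all genes) for rises in H441 to 88.8% (42.9%) for falls in H1703.

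**Figure D1:**
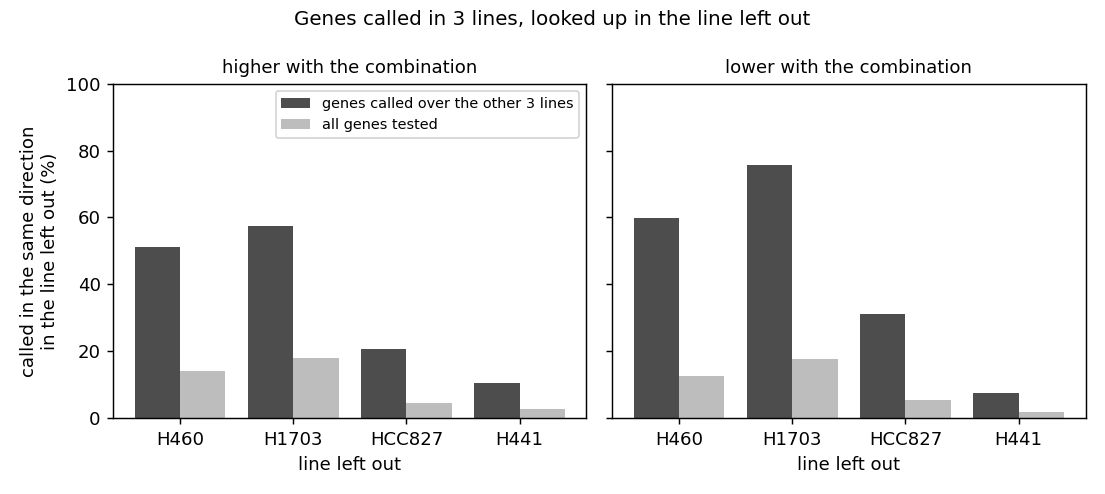
Percent of genes called in the same direction in the line left out (y axis), for genes called over the other 3 lines (dark bars) and for all genes tested (light bars), by line left out (x axis). In every line the dark bar is the higher, from 7.44% against 1.86% for falls in H441 to 75.6% against 17.6% for falls in H1703. The test of each line took its spread from all 16 libraries, so the dark bars are not independent of the choice of genes.

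Across the 23968 genes the changes of H460 and H1703 had a Pearson correlation of 0.34. The other pairs of lines lay between 0.129 (H460 and H441) and 0.228 (H1703 and HCC827). HCC827 and H441, the pair called non-responsive, had 0.15. These are descriptions across genes, which are not independent replicates, and no 2 lines share a library.

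The targets of the compounds come first. MYC (chromosome 8, 127735434 to 127741434) did not fall on average. Its normalised reads were 663 and 665 with vehicle and 1690 and 1690 with the combination in H1703, 2090 and 2070 against 2770 and 3570 in HCC827, 953 and 994 against 1020 and 1340 in H441, and 1550 and 1410 against 1370 and 1470 in H460. The libraries were apart, with the combination higher, in 3 lines and overlapped in H460. The average change was 0.54 ± 0.14 (adjusted p = 0.0139), the call was lost without H1703 (0.27, adjusted p = 0.12) and without HCC827 (0.52, adjusted p = 0.0642), and the lines differed (adjusted p = 6.69e-06). These are mRNA levels, and the compound acts on the protein. MAX, the partner of MYC, had a change of -0.08 ± 0.09 (adjusted p = 0.561), and MXI1, which encodes a repressor that competes with MYC for MAX, rose by 0.87 ± 0.15 with separate libraries in every line.

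Of the class IIa deacetylases HDAC9 and HDAC5 rose, with separate libraries in all 4 lines. HDAC9 (chromosome 7, 18086949 to 19002416) went from 170 and 188 to 448 and 502 normalised reads in H1703, from 271 and 302 to 532 and 533 in HCC827, and from 51.9 and 46.7 to 170 and 213 in H441. In H460 it rested on 1 vehicle read and 12 combination reads, a ratio of 14.8 (95% counting interval 2.19 to 633, which covers counting error only). The average change was 1.57 ± 0.18 (adjusted p = 4.05e-05), and the difference among the lines did not pass (adjusted p = 0.0539). HDAC5 went from 92.9 and 89.7 to 307 and 352 in H460 and from 209 and 207 to 325 and 382 in H441, and rose by 0.98 ± 0.13 on average. It rose by more in H460 (1.82) than in the other lines (0.65 to 0.75), and the difference among the lines passed (adjusted p = 2.15e-05). HDAC4 had -0.24 ± 0.10 (adjusted p = 0.107), a call gained with median centring (-0.35, adjusted p = 0.0454), with voom (-0.34, adjusted p = 0.0238), without HCC827 (-0.38, adjusted p = 0.0185) and without HCC827 combination replicate 2 (-0.29, adjusted p = 0.04). HDAC7 had 0.05 ± 0.08 (adjusted p = 0.698), and its sign flipped with median centring (-0.06) and without H441 (-0.01). Among 13 other histone deacetylases 3 rose and 2 fell, and of 6 genes of MEF2 factors and the MEF2-driven NR4A receptors 3 rose (5 with voom) and none fell.

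**Figure D2:**
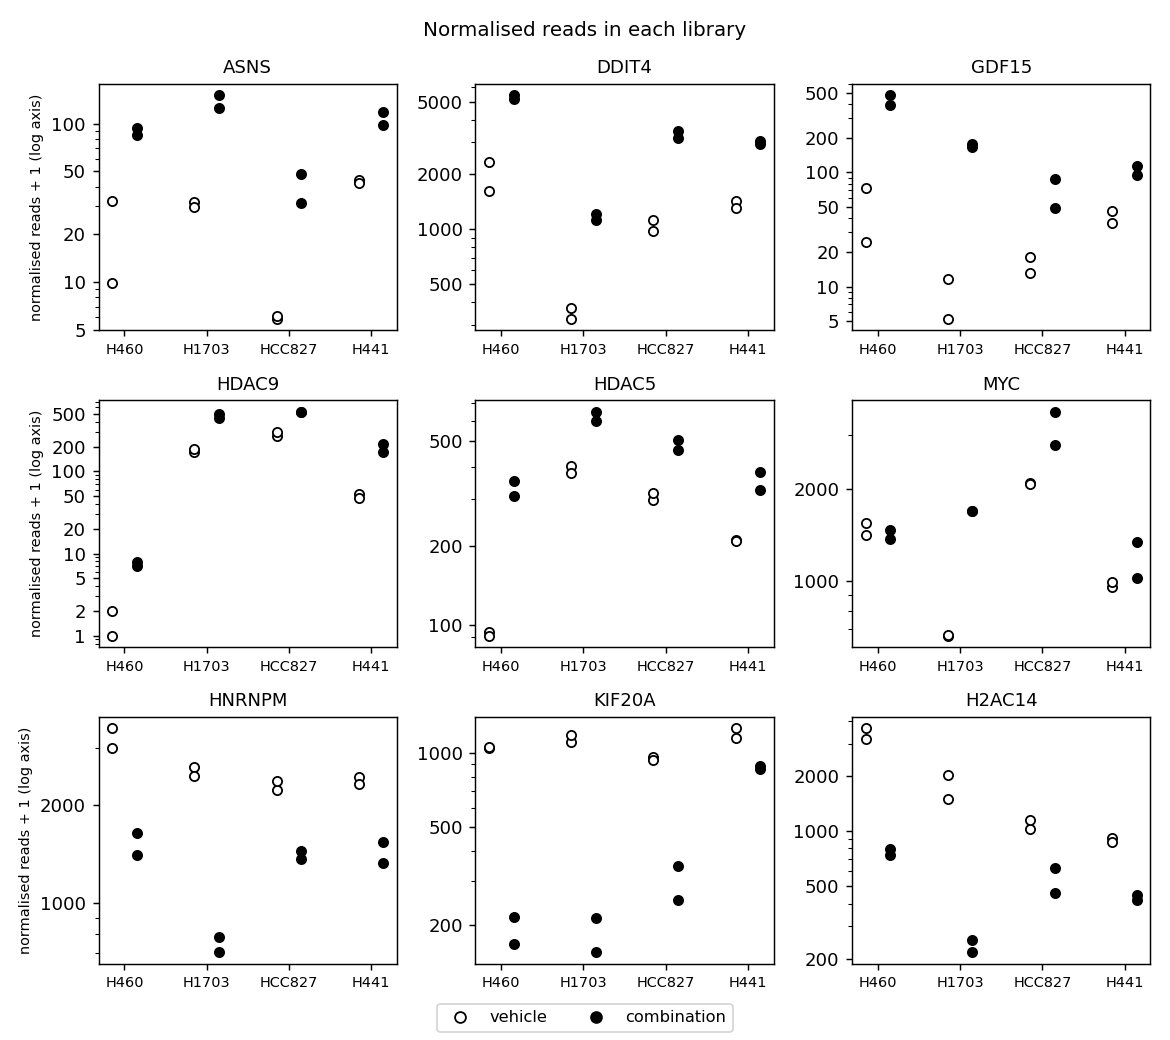
Normalised reads plus 1 on a log axis (y) for 9 genes in each line (x), with 1 point per library, open for vehicle and filled for the combination. ASNS, DDIT4, GDF15, HDAC9 and HDAC5 are higher and HNRNPM, KIF20A and H2AC14 lower in every combination library than in the vehicle libraries of the same line, while MYC overlaps in H460. ASNS, DDIT4, GDF15 and H2AC14 were picked from the common set, which requires this separation.

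The next question was which rises were common to the lines. The genes named from here up to the gene lists were picked from the common set, so their separate libraries follow from that choice. DDIT4 encodes an inhibitor of the growth kinase mTORC1 and is switched on by many stresses. It had 1620 and 2340 normalised reads with vehicle and 5460 and 5180 with the combination in H460, 369 and 322 against 1130 and 1220 in H1703, 1130 and 976 against 3160 and 3480 in HCC827, and 1430 and 1310 against 3040 and 2920 in H441. The libraries were apart in each line. The changes were 1.45, 1.76, 1.65 and 1.12, and the F test of a difference among the lines passed (adjusted p = 0.0308). The average was 1.5 ± 0.09 (adjusted p = 1.32e-07), a 2.82-fold rise. Its antisense partner DDIT4-AS1 rose by 1.49 ± 0.10 (F test adjusted p = 0.0059). No source used here gives the strand setting of the counting, so reads of the pair cannot be told apart.

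ASNS (chromosome 7, 97852118 to 97872542), asparagine synthetase, is a standard ATF4 target whose element is printed above. It had 8.8 and 31.5 normalised reads with vehicle and 83.6 and 93.5 with the combination in H460, 31.2 and 28.7 against 125 and 151 in H1703, 4.85 and 5.06 against 47.1 and 30.4 in HCC827, and 43.1 and 41.2 against 118 and 97.1 in H441. No combination library overlapped a vehicle library of its line. The average change was 2.01 ± 0.21 (adjusted p = 2.39e-05), with line values from 1.29 to 2.44, and the F test of a difference among lines did not pass (adjusted p = 0.28).

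GDF15 encodes a cytokine released under stress. It rose by 2.70 ± 0.35, and by more in H1703 (4.19) and H460 (3.30) than in HCC827 (1.97) and H441 (1.33). Its normalised reads in H1703 were 10.7 and 4.2 with vehicle and 166 and 175 with the combination. In H441 they were 45.3 and 34.7 against 93.7 and 114. PAPPA2, a secreted protease that cleaves IGF-binding proteins and so frees insulin-like growth factor, rose by 3.07 ± 0.32, with 164 and 145 against 4090 and 3380 in H460 and 14.4 and 15.2 against 61.5 and 46.3 in H441. In H1703 it stayed low, at 3.9 and 1.4 against 21.8 and 23.6.

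Other large common rises were in genes of varied function. KIF21B, a kinesin that limits microtubule growth, rose by 2.33 ± 0.20, between 1.49 in H441 and 2.96 in H460. UNC13A, a priming factor of synaptic vesicles, rose by 2.43 ± 0.50, by 5.35 in H460 and 1.40 to 1.51 in the other lines. DUSP5, a phosphatase that inactivates ERK in the nucleus, rose by 2.19 ± 0.29, from 34.1 and 40.6 to 490 and 459 normalised reads in H1703 and from 170 and 149 to 897 and 859 in H441. PPP1R15A, the phosphatase subunit GADD34 that reverses the translation block of the integrated stress response, rose by 2.23 ± 0.32. ARHGEF2-AS2, an antisense RNA whose reads may include those of its partner, rose by 1.79 ± 0.25. The F test found a difference among the lines for UNC13A (adjusted p = 2.15e-05), PPP1R15A (8.08e-06), DUSP5 (0.00724) and KIF21B (0.0296), and did not pass for ARHGEF2-AS2 (0.743).

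A pair of large average rises rested on very few reads with vehicle in some of the lines. IL1RL1, the receptor of interleukin 33, had 543 combination reads in H460 against 1 with vehicle (ratio 670, counting interval 120 to 26500). In H1703 it had 0 and 23 reads, at least 8.6-fold when set against 3 reads in the empty group. In H441, where it was expressed already, it went from 56.3 and 54.3 to 160 and 154 normalised reads, and its average call (3.21 ± 0.68, adjusted p = 0.00454) was lost without H1703 (3.22, adjusted p = 0.0611). IGFN1 rose by 2.71 ± 0.47, at least 15-fold from 0 to 40 reads in H1703, and went from 3 to 8 reads in H441 (ratio 2.33, interval 0.558 to 13.6). In HCC827 it went from 3 to 28 reads (ratio 8.75, interval 2.7 to 45). In H460, where it was expressed already, it went from 98.8 and 27.5 to 1180 and 463 normalised reads.

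**Figure D3:**
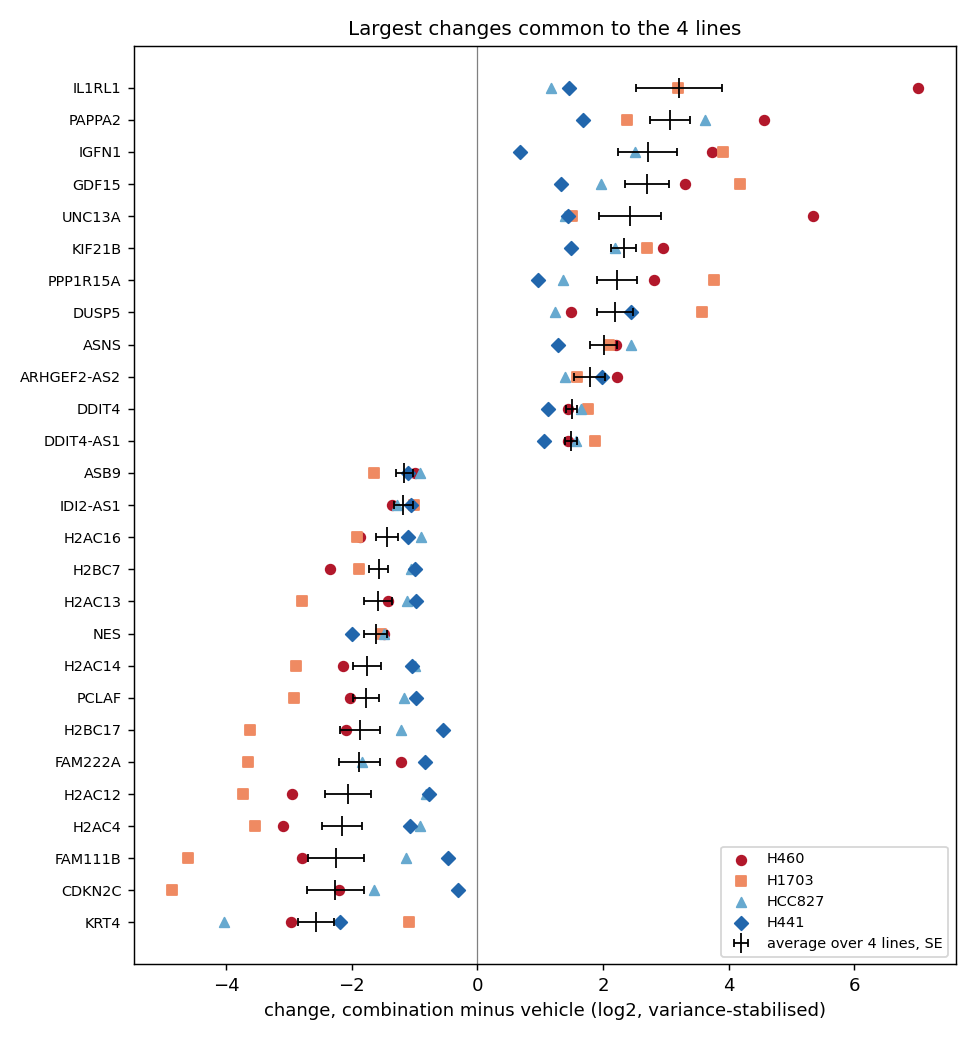
Log2 change of the deposited values, combination minus vehicle (x axis), for the named genes with the largest common changes (y axis), with 1 symbol per line and a bar for the average ± SE. DDIT4 runs from 1.12 to 1.76 and IDI2-AS1 from -1.36 to -1.01, and CDKN2C from -4.87 in H1703 to -0.31 in H441.

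Among the falls, replication-dependent histone genes, whose mRNAs are made in S phase, took many of the places. H2AC14 (chromosome 6, 27814354 to 27814740) went from 3630 and 3160 to 798 and 738 normalised reads in H460, from 1490 and 2010 to 215 and 253 in H1703, from 1020 and 1140 to 623 and 457 in HCC827, and from 909 and 864 to 417 and 445 in H441. The groups were apart in every line. It fell by 1.76 on average (SE 0.22, adjusted p = 0.000176), and the F test found a difference among the lines (adjusted p = 5.26e-07). H2AC4 (-2.16 ± 0.32), H2AC12 (-2.06 ± 0.36), H2BC17 (-1.87 ± 0.32), H2AC13 (-1.58 ± 0.22), H2BC7 (-1.57 ± 0.15) and H2AC16 (-1.44 ± 0.18) fell too. Near-identical histone copies can share reads, so values of single histone genes are uncertain.

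Other genes of the cell cycle and DNA copying were the next group. PCLAF, which binds the sliding clamp PCNA, fell by 1.77 (SE 0.21), from 355 and 360 to 81.6 and 90.1 normalised reads in H460 and from 97.2 and 99.8 to 60.4 and 39 in H441. CDKN2C, an inhibitor of the kinases CDK4 and CDK6, fell by 2.26 (SE 0.46), with -4.87 in H1703 and -0.31 in H441. FAM111B (-2.25 ± 0.45), a protease gene, had -4.61 in H1703 and -0.46 in H441. For all 3 of these genes the F test found a difference among lines (highest adjusted p = 6.46e-05). In the list of CDK inhibitors 1 of 7 tested members rose and 2 fell (14.3% and 28.6%, against 10.9% and 10.1% of all genes).

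A few common falls lay outside the cell cycle. KRT4, a keratin, fell by 2.57 (SE 0.29), from 936 and 1060 to 63.5 and 52.6 normalised reads in HCC827 and from 1670 and 1930 to 322 and 479 in H441. With 19 and 0 reads in H460 it was at least 5.13-fold lower, and its 2 and 0 reads in H1703 are too few for a fold. NES, the intermediate filament gene nestin, fell by 1.62 (SE 0.18), from 797 and 852 to 283 and 306 in H460 and from 63 and 61.8 to 16.5 and 25.8 in HCC827. It had 5 and 0 reads in H1703 (at least 1.49-fold lower) and 6 and 0 in H441 (at least 2.29-fold lower). ASB9 (-1.16 ± 0.14), IDI2-AS1 (-1.18 ± 0.15), an antisense RNA, and FAM222A (-1.88 ± 0.33) also fell, with separate libraries in all 4 lines. The F test did not pass for NES, ASB9 and IDI2-AS1 (lowest adjusted p = 0.309), and found a difference among the lines for KRT4 (adjusted p = 6.17e-05) and FAM222A (0.000889).

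Gene lists written from general knowledge show which functions these genes belong to. Over all genes tested the background is 10.9% higher, 10.1% lower and a median of 0.05. This background varies with the level of expression. In the highest of 5 bins of mean level 15.4% of genes were higher and 26.6% lower, and in the lowest 2.75% and 0.897%. The lists were not matched by level. In the list of replication and G1/S genes 44 of 46 tested members fell (95.7%) and none rose, with a median of -1.04, and 29 were common to the lines. Without H1703 29 of the 46 were called lower. E2F2, an S phase transcription factor, fell by 1.79 (SE 0.27). By line, H460 had a median of -1.91, H1703 of -1.66, HCC827 of -0.54 and H441 of -0.14, and in H441 5 members passed the test of the line. In the mitosis list all 42 tested members fell, 24 of them common, with a median of -1.09 and line medians of -1.69, -1.84, -0.82 and -0.15.

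KIF20A, a kinesin needed for the last step of cell division, shows this gradient. It went from 1050 and 1060 to 166 and 213 normalised reads in H460, from 1110 and 1180 to 211 and 153 in H1703, from 967 and 933 to 345 and 252 in HCC827, and from 1150 and 1260 to 883 and 861 in H441. The libraries were apart in each line, and the difference was smallest in H441. It fell by 1.82 on average (SE 0.24, adjusted p = 0.000236). BIRC5, the mitotic gene survivin, fell by 1.53 (SE 0.28). Of 42 histone genes 36 fell and none rose (median -1.27), and 30 were common. Their line medians were -1.72, -1.95, -0.61 and -0.59, so the median in H441 was close to that in HCC827, unlike in the other cell cycle lists.

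DNA repair and chromatin copying genes followed. Of 29 homologous recombination and Fanconi genes 22 fell and 1 rose (median -0.64; 12 lower without H460 and 10 without H1703), among them the helicase BRIP1 (-1.14 ± 0.20) and the exonuclease EXO1 (-1.20 ± 0.26), whose call was lost without H1703 (-0.87, adjusted p = 0.0913). Of 21 polycomb and DNA methylation genes 8 fell and 2 rose. UHRF1, which helps copy DNA methylation onto new strands, fell by 1.21 (SE 0.24), and TET1, which oxidises methylated cytosine, by 1.27 (SE 0.21). In H441 TET1 had 7 and 0 reads, at least 2.67-fold lower. Of 14 tubulin genes 9 fell and 1 rose (median -0.60). Of 30 nucleotide synthesis genes 14 fell and none rose (median -0.30), among them RRM2 (-1.71 ± 0.33), a subunit of ribonucleotide reductase that is also counted with replication.

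Ribosome genes did not move as 1 block. Of 47 genes of ribosome biogenesis, a textbook MYC target group, 8 fell and 2 rose, with a median of -0.05 and line medians of -0.35, -0.09, 0.10 and 0.03. These shares, 17% and 4.26%, compare with 10.1% and 10.9% of all genes. The count of 8 became 2 without H460 or H1703, and 5 without H460 vehicle replicate 1, H1703 vehicle replicate 2 or H1703 combination replicate 2. It became 13 without HCC827 or its vehicle replicate 2 alone. The E-box CACGTG occurred on either strand in 14 of 38 of their promoters (36.8%), against 9.45% of the promoters of tested genes. In the common set it occurred in 10.0% of the promoters of higher genes and 10.5% of those of lower genes. UBTF, the factor that opens ribosomal RNA genes, fell by 0.64 (SE 0.11), and the nucleolar protein gene NCL by 0.50 (SE 0.10). Of 15 genes of the MYC network 4 rose and 3 fell, with 2 higher without H1703. MYCL, a MYC paralogue, was among the rises (1.29 ± 0.33), with 1 and 7 reads in H460 (ratio 8.64, interval 1.11 to 390). Its change was -0.60 in HCC827, and the call was lost without H460 (1.18, adjusted p = 0.0574), H1703 (0.86, adjusted p = 0.135) or H441 (1.21, adjusted p = 0.0504).

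Cytosolic ribosomal protein genes went the other way. Of 78 members 57 rose (73.1%) and 1 fell, 33 were common, and the median was 0.32, with 0.50, 0.46, 0.18 and 0.14 by line. RPL12 went from 3400 and 3290 to 6860 and 7520 normalised reads in H460 and from 2620 and 2810 to 3020 and 3410 in H441, a rise of 0.78 ± 0.12 on average. RPL36 rose by 0.63 ± 0.10. With median centring 34 of the 78 were called higher and 1 lower, and the median was 0.21. Without H460 36 were called higher and without H1703 37. Of 43 initiation and elongation factor genes 12 rose and 9 fell, with 7 higher after median centring. EIF4EBP1, a brake on cap-dependent translation and a known ATF4 target, rose by 0.84 ± 0.11.

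Stress genes were the other large group among the rises. Of 41 integrated stress response genes 29 rose (70.7%) and none fell, 19 were common, and the median was 0.94. H460 had a median of 1.52, HCC827 of 1.37, H441 of 0.59 and H1703 of 0.50, an order unlike that of the cell cycle lists. In H1703 20 of the 41 rose and 8 fell, and in H441 24 rose and none fell. ATF3, a stress factor induced by ATF4, rose by 1.94 ± 0.31, from 21.5 and 18.9 to 290 and 238 normalised reads in H460 and from 68.5 and 93.3 to 147 and 152 in H441. CHAC1, which breaks down glutathione, rose by 2.25 ± 0.52, with 4.93 in H460, 2.80 in HCC827, 0.91 in H1703 and 0.37 in H441, where 28.2 and 60.8 overlapped vehicle values of 35.3 and 28.2.

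Of 20 cytosolic aminoacyl-tRNA synthetases, which charge tRNAs with amino acids, 11 rose and 1 fell, and 7 were common (median 0.34). The median in H1703 was -0.04, with 7 higher and 5 lower, and the medians of the other lines lay between 0.36 and 0.50. GARS1 (0.92 ± 0.11) and SARS1 (0.91 ± 0.12), for glycine and serine, rose most. Of 16 amino acid transporters 7 rose and 1 fell, with 4 higher without H460 or HCC827. In H1703 2 rose and 6 fell (median -0.08), while 8, 8 and 9 rose and none fell in H460, HCC827 and H441. SLC43A1 rose by 1.08 ± 0.26. Its largest change, 2.18 in H441, rested on 0 and 8 reads (at least 2.33-fold). The changes in H460, H1703 and HCC827 were 0.18, 0.93 and 1.05, and none passed the test of its line (lowest adjusted p = 0.0909). The glycine transporter SLC6A9 rose by 1.42 ± 0.44 on average, with 3.79 in H460, 1.83 in HCC827 and 0.08 in H441 and 0.00 in H1703. Its call was lost with voom (1.08, adjusted p = 0.0816), without H460 (0.63, adjusted p = 0.108), without HCC827 (1.29, adjusted p = 0.121) and without any 1 of 7 libraries of these 2 lines (highest adjusted p = 0.0634, without H460 vehicle replicate 1).

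Of 27 unfolded protein response genes 12 rose and 2 fell (median 0.21), with 7 higher after median centring. DNAJB9, a co-chaperone of the endoplasmic reticulum, rose by 1.16 ± 0.19, and ERN1, the sensor kinase IRE1, by 1.14 ± 0.15. Cytosolic chaperones fell in the main. Of 23 heat shock genes 13 fell and 1 rose (median -0.54), with HSP90AA1 (-1.0 ± 0.18) going from 74300 and 70600 to 28000 and 29500 normalised reads in H460 and from 16100 and 15100 to 13200 and 12400 in H441. DNAJA1 fell by 1.01 (SE 0.13). Of 8 genes of the CCT chaperonin, which folds tubulin and actin, 7 fell (3 without H460 or H1703), such as TCP1 (-0.56 ± 0.10) and CCT2 (-0.42 ± 0.07). Of 35 proteasome genes 26 fell and none rose (median -0.35; 15 lower without H460 and 14 without H1703), such as PSMC3 (-0.70 ± 0.13) and PSMB3 (-0.57 ± 0.12).

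Splicing factor genes, which set how transcripts are joined, were often lower. Of 31 SR and HNRNP genes 24 fell (77.4%) and none rose, 18 were common, and the line medians were -0.52, -0.69, -0.28 and -0.15. The F test found a difference among the lines for 26 of the 31. HNRNPM went from 3440 and 3000 to 1640 and 1400 normalised reads in H460, from 2620 and 2450 to 787 and 703 in H1703, from 2230 and 2370 to 1440 and 1360 in HCC827, and from 2440 and 2320 to 1330 and 1540 in H441. Each combination library lay below all vehicle libraries, and the lines differed (F test adjusted p = 1.04e-05). HNRNPM fell by 1.07 (SE 0.12, adjusted p = 3.73e-05) and SRSF2 by 0.99 (SE 0.12).

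Nuclear long non-coding RNAs and host genes of small nucleolar RNAs rose in 9 of 20 cases (5 without H1703) and fell in 2 (median 0.40). MALAT1, a nuclear RNA found near splicing speckles, went from 17200 and 20300 to 150000 and 144000 in H460 and from 84700 and 99000 to 127000 and 121000 in H441, 1.54 ± 0.29 on average. NEAT1, the backbone of paraspeckles, rose by 1.31 ± 0.28. Without H1703 both calls were lost (MALAT1 1.37, adjusted p = 0.0609; NEAT1 1.25, adjusted p = 0.0793).

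Lipid genes fell with sterol genes in front. Of 24 cholesterol synthesis genes 21 fell and none rose (median -0.76), and 6 were common. Without H460 12 were called lower and without HCC827 13. The line medians were -1.17, -0.83 and -0.82 in H460, H1703 and HCC827 and -0.04 in H441. INSIG1, a sterol sensor partner, fell by 1.78 (SE 0.32). Of 16 fatty acid synthesis genes 7 fell and 1 rose, with the desaturase SCD (-1.44 ± 0.18) at 12600 and 16100 against 8730 and 9710 in H441, and FASN (-0.92 ± 0.10), fatty acid synthase, apart in every line. Of 13 lipolysis and lipid droplet genes 5 rose and none fell. Only 3 were higher with no filter, quantile normalisation or median centring. Without H460 or HCC827 3 were higher and without H1703 or H441 2, and 3 were without any 1 of 8 libraries (H460 vehicle replicate 2 and combination replicate 2, all 4 of H1703, H441 vehicle replicate 2 and combination replicate 1). MGLL, monoacylglycerol lipase, rose by 2.15 ± 0.47, with 4.09 in H1703, 3.56 in H460, 0.66 in H441 and 0.27 in HCC827, and its call was lost without H1703 (1.5, adjusted p = 0.0945). G0S2, an inhibitor of triglyceride lipase, had an average of 0.91 ± 0.25 and 0 reads in both groups of H1703. Its call was lost without HCC827 (0.71, adjusted p = 0.157) and without H441 (0.80, adjusted p = 0.102).

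Energy genes of the nucleus fell in part. Several shares of falls lay near the 26.6% of all genes in the highest level bin. They were 27% for complex I, 26% for the mitochondrial ribosome and 27.8% for mitochondrial DNA upkeep and import. The TCA cycle had 30.4% and NRF2 targets 23.1%. Of 39 genes of respiratory complexes II to V 18 fell and none rose (median -0.30; 11 lower without H1703), such as ATP5MC3 (-0.76 ± 0.14) and ATP5F1C (-0.61 ± 0.09) of the ATP synthase. Of 37 complex I genes 10 fell and 1 rose, with NDUFB3 at -0.60 ± 0.14 and NDUFB10 at -0.50 ± 0.12 but 0.08 in HCC827. The NDUFB10 call was lost without H460 (-0.41, adjusted p = 0.0585) and without H1703 (-0.34, adjusted p = 0.0646). The count of 10 became 3 without H460, 4 without H1703, 5 without H1703 combination replicate 2, 6 without any 1 of the other H1703 libraries and 16 with median centring. The 13 mRNAs encoded by mitochondrial DNA had a median of 0.61 in H460 and of -0.58, -0.28 and -0.35 in the other lines, and 3 fell on average. This count became 1 without H1703, HCC827 or H441, and without any 1 of 6 libraries (all 4 of H1703, and vehicle replicate 2 of HCC827 or H441). It became 8 without H460. Of 77 mitochondrial ribosome genes 20 fell and 2 rose, with 6 lower without H460 and 9 without H1703. MRPS7 had -0.47 ± 0.08 with line values from -0.54 to -0.38 (F test adjusted p = 0.889), and MRPL50 fell by 0.51 (SE 0.08).

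Of 36 genes of mitochondrial DNA upkeep and import 10 fell and 6 rose, with 4 lower without H460, 3 without H1703 and 6 with neither trend nor robust settings. TFAM, which packs mitochondrial DNA, fell by 0.64 (SE 0.12). TOMM40, the pore of the outer membrane, had -0.51 ± 0.14 on average and 0.15 in HCC827. Its call was lost without H460 (-0.35, adjusted p = 0.138) and without H1703 (-0.34, adjusted p = 0.153). Of 23 TCA cycle genes 7 fell, such as IDH3A (-0.55 ± 0.09) and citrate synthase (CS, -0.46 ± 0.09), and none rose. The count was 3 without H460, 4 without H1703, 12 without H441 and 13 with median centring. Of 23 glycolysis genes 10 fell and 3 rose. PGAM1 fell by 0.98 (SE 0.15). ALDOC fell by 1.07 (SE 0.25) but had -0.45 (adjusted p = 0.111) with voom, and in H1703 it had 17 and 1 reads, a ratio of 15.2 (interval 2.37 to 633). Of 26 NRF2 targets 6 fell (11 with voom) and 4 rose, with the peroxiredoxin PRDX1 (-0.81 ± 0.18) and the pentose phosphate enzyme TKT (-0.62 ± 0.11) both lower.

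**Figure D4:**
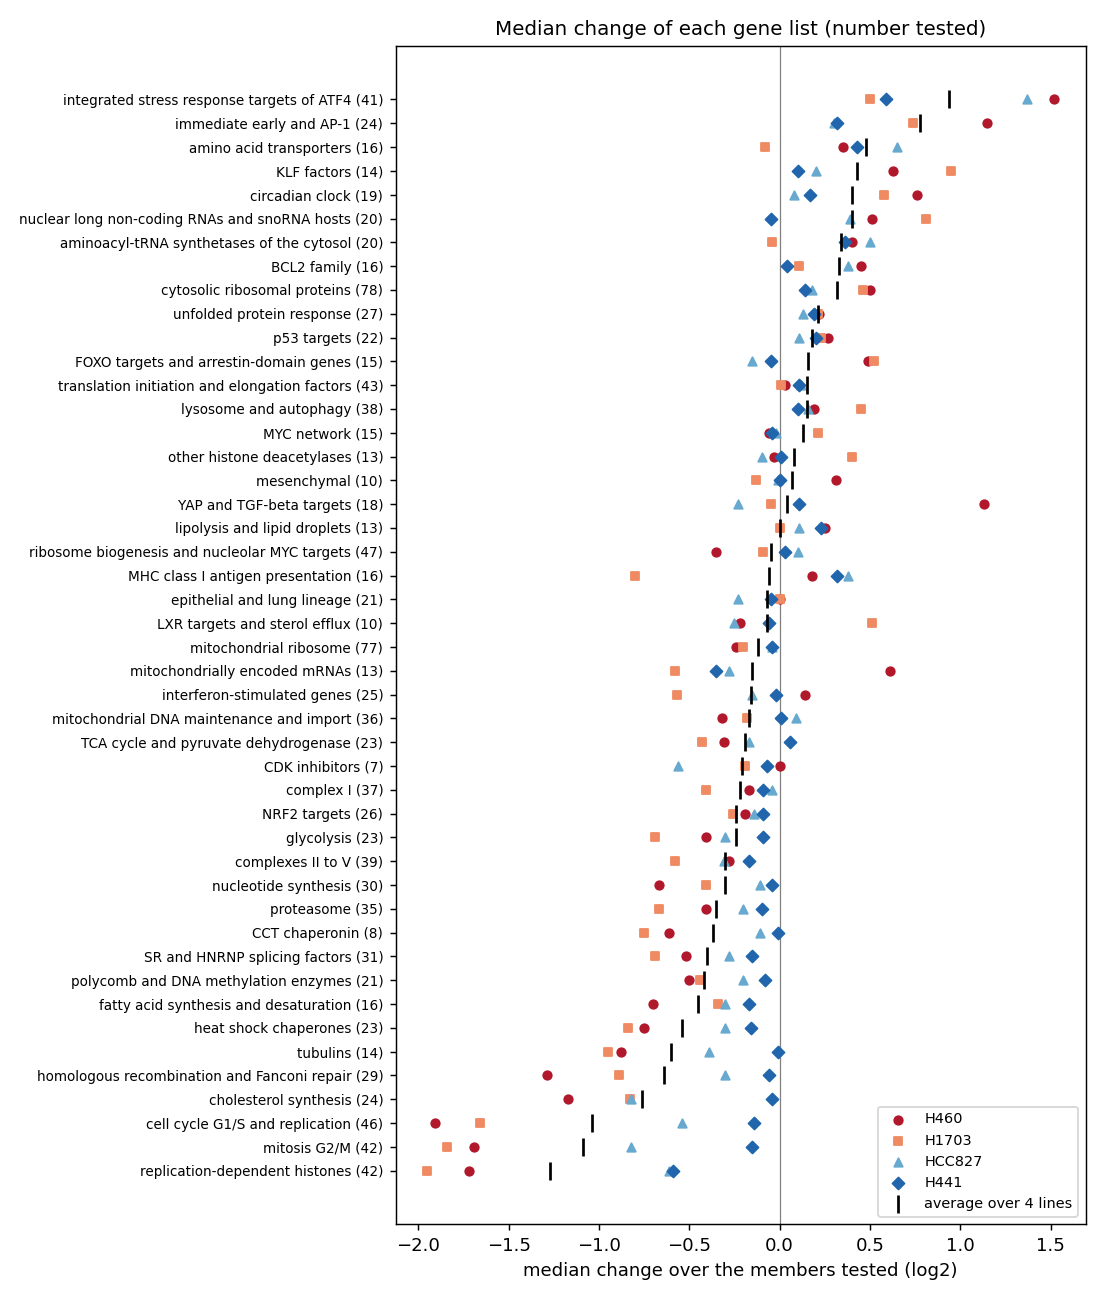
Median change over the tested members (x axis, deposited log2 scale) for each gene list with at least 7 tested members (y axis, with that number), with 1 symbol per line and a bar for the average. Cell cycle and histone lists lie lowest in H460 and H1703. The cholesterol list lies low in H460 (-1.17), H1703 (-0.83) and HCC827 (-0.82) but not in H441 (-0.04). The integrated stress response list lies highest in H460 (1.52) and HCC827 (1.37).

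Genes that respond to growth and damage signals came next. Of 24 immediate early and AP-1 genes 13 rose (54.2%), none fell and 8 were common (median 0.78), and of 14 KLF factors 6 rose (3 without H460, 2 without H1703) and none fell. Of 22 p53 targets 7 rose and 1 fell. GADD45A, which slows the cycle after DNA damage, rose by 1.47 ± 0.21, from 214 and 259 to 1350 and 1040 normalised reads in H1703 and from 102 and 104 to 130 and 210 in H441. CDKN1A, the cell cycle inhibitor p21, rose by 1.27 ± 0.24, from 448 and 246 to 1760 and 1940 in H460. In H441 the change was 0.39, with 218 and 200 against 287 and 261. Of 16 BCL2 family genes 6 rose (3 without H1703) and none fell. The death promoters HRK (1.29 ± 0.27) and BBC3 (0.86 ± 0.19) were among them. HRK had 2 and 27 reads in H460 (ratio 16.7, interval 4.19 to 145) and 0 reads in both groups of H441, and the BBC3 call was lost without H1703 (0.67, adjusted p = 0.0516).

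Clock, lysosome and surface genes gave smaller shares. Of 19 circadian clock genes 7 rose and none fell (median 0.40), with the repressor NFIL3 (1.24 ± 0.17) and the activator NPAS2 (1.08 ± 0.18). Of 38 lysosome and autophagy genes 12 rose (6 without H1703) and 5 fell. WIPI1, which marks forming autophagosomes, rose by 1.36 ± 0.16, and the F test did not pass (adjusted p = 0.383). RRAGD, a GTPase that recruits mTORC1 to lysosomes, rose by 1.38 ± 0.36 and had 0 reads in both groups of H441. Its call was lost without H460 (1.36, adjusted p = 0.0578) and without H1703 (0.69, adjusted p = 0.129). Of 16 genes of MHC class I presentation and its checkpoint partners 4 rose and 1 fell. In H1703 8 fell and 2 rose (median -0.80), while 5, 3 and 2 rose and none fell in H460, HCC827 and H441. CD274, the checkpoint ligand PD-L1, rose by 1.65 ± 0.28, from 102 and 137 to 784 and 1700 in H460 and from 625 and 634 to 1420 and 1450 in H441. HLA-B rose by 0.95 ± 0.27 but had -0.50 in H1703, and its call was lost with voom (0.36, adjusted p = 0.328), without H460 (0.63, adjusted p = 0.147) and without HCC827 (0.70, adjusted p = 0.142).

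Of 18 YAP and TGF-beta targets 5 rose (2 without H1703) and 2 fell, with a median of 0.04 that became -0.07 with median centring, and a line median of 1.13 in H460. ANKRD1, a muscle stress gene and YAP target, rose by 2.00 ± 0.51, and its call was lost without H1703 (1.98, adjusted p = 0.123). Of 25 interferon-stimulated genes 3 rose and 2 fell, a share near the background.

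Some genes moved in opposite directions and so left no average. A gene counted here when at least 1 line passed its own test upwards and at least 1 downwards. Of 23968 genes tested 11474 were called in at least 1 line, and 984 met this rule. The average test called 11 of these 984, against 21% of all genes. The rule itself makes such a call rare, since opposite changes cancel in the average. APOBEC3B, a cytidine deaminase, went from 58.7 and 77.1 to 15.3 and 13.7 normalised reads in H460 and from 109 and 124 to 45.7 and 63.8 in H1703, but from 44.8 and 51.6 to 87 and 88.5 in HCC827 and from 53 and 55.3 to 137 and 158 in H441. Both responsive lines were lower and both non-responsive lines higher, and the average was -0.22 ± 0.37 (adjusted p = 0.737). B4GALNT1, a ganglioside synthase, fell in H1703 (-2.14) and had -0.48 in H460 and 0.31 in HCC827. In H441 it passed with 1.39, on only 0 and 3 reads.

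The other opposed genes split the responsive pair or set H460 against HCC827. WNT7B, a secreted ligand, had 2 vehicle reads and 58 combination reads in H460 (ratio 35.8, interval 9.48 to 303) and went from 39 and 37.1 to 3.27 and 5.52 normalised reads in H1703. SDC2, a cell surface proteoglycan, went from 55.8 and 71.6 to 349 and 359 in H460 and from 56.5 and 53.9 to 9.8 and 6.3 in H1703, and without H460 its difference among lines was lost (adjusted p = 0.124). ADRB1, the beta-1 adrenergic receptor, did likewise, and its difference was lost without H1703 (adjusted p = 0.322). KLLN ran the other way, from 99.8 and 88.1 to 19.4 and 19.4 in H460 and from 1.95 and 2.1 to 29.4 and 33.1 in H1703. ITPKA fell in H460 (-2.06) and rose in HCC827, at least 2.5-fold from 0 to 8 reads. OTOGL fell in H460 (-1.48) and rose in HCC827 (2.03), with the difference lost without HCC827 (adjusted p = 0.171).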

How the data were processed

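Total RNA of 16 libraries was measured, 2 for each of 4 lines and 2 treatments. The submitters' processing notes name Trimmomatic, STAR and featureCounts as tools and GRCh38 as the build. Versions, annotation release and strand setting are not given in these sources. The deposited table holds 28951 genes as log2 values, which the authors computed from gene counts by a variance-stabilising transformation after scaling each library. The lowest value, 0.480538, stands for 0 reads. The transformation was inverted, and 100% of the values then lay within 0.02 of a whole read. These are the reads in the text, and divided by the size factor of the library they are the normalised reads. GENCODE 29 gave positions for 28846 gene IDs, and 28782 IDs had a current symbol.

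Genes whose mean lay at least 1 above the lowest value were tested (23968, with 4983 removed). The average effect is the treatment term of a limma fit with line as block (limma 3.58.1, R 4.3.3, trend and robust settings, two-sided). Changes in each line, differences among lines and between the 2 line classes came from a fit of 8 group means. A bound for a gene with 0 reads in a group was taken against 3 reads over that group. On simulated data with 24278 genes, the average test recovered 52% of genes changed 1.5-fold, 90% at 2-fold, 98% at 3-fold and 96% at 4-fold, and called 2 of 24078 unchanged genes. There each changed gene had the same fold in every line, a fixed spread between libraries and more than a few reads. In the real data the response of 7626 genes (31.8%) differed among the lines, which enters the error of this test. The simulated shares therefore do not carry over to the real data.

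Named genes were common genes with a mean at least 3 above the lowest value: 10 rises and 10 falls with the largest smallest change over the lines, and 8 and 8 with the largest average change. Added were MYC, MAX, MXI1 and the class IIa deacetylases, up to 2 members of most lists with at least 4 calls in 1 direction, and 8 genes with the largest opposite calls. A few genes that the rule picks are left out of the text. Comparisons, members and lists were chosen with earlier results of these data known. Alternatives changed the filter, scaling, fit, block and libraries. Tables and figures used Python 3.11.15, numpy 2.4.6, pandas 2.3.3, scipy 1.17.1 and matplotlib 3.10.9.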

Additional observations from a re-analysis of the deposited data

Results flagged for a closer look

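The results below stand out because the average over 4 lines hides a difference. For each gene the mean response of the responsive lines H460 and H1703 minus that of the non-responsive lines HCC827 and H441 passed limma's test (adjusted p under 0.05, 5594 genes or 23.3% of those tested). With 2 lines in each class, a difference between classes and a difference between single lines cannot be told apart. All values are differences of log2 changes.

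The difference was negative for cell cycle genes. It was -2.23 for RRM2, -1.88 for E2F2, -1.40 for PCLAF, -2.55 for CDKN2C and -2.91 for FAM111B. It was -1.49 for KIF20A, -1.85 for BIRC5, -1.88 for EXO1, -1.41 for BRIP1 and -1.42 for UHRF1. Among histone genes it was -1.49 for H2AC14, -1.09 for H2BC7, -1.06 for H2AC13, -2.32 for H2AC4, -0.90 for H2AC16, -2.55 for H2AC12 and -1.98 for H2BC17. FAM222A had -1.09, with -3.65 in H1703 but -1.21 in H460 and -1.84 in HCC827.

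Chaperone, proteasome and splicing genes showed the same sign with smaller values. The difference was -1.24 for HSP90AA1, -0.94 for DNAJA1, -0.65 for TCP1, -0.29 for CCT2, -0.90 for PSMC3 and -0.69 for PSMB3. It was -0.70 for HNRNPM and -0.66 for SRSF2. The nucleolar genes UBTF and NCL had -0.64 and -0.61.

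Metabolic genes followed with negative values. The difference was -0.67 for SCD and -0.70 for FASN, and -0.96 for ALDOC, -0.90 for PGAM1, -0.59 for PRDX1 and -0.78 for TKT. Mitochondrial genes had -0.46 (NDUFB3), -0.71 (NDUFB10), -0.88 (ATP5MC3), -0.54 (ATP5F1C), -0.85 (TFAM), -0.98 (TOMM40), -0.42 (IDH3A) and -0.46 (CS).

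For some stress and signal genes the difference was positive. It was 2.10 for GDF15, 2.13 for PPP1R15A, 2.11 for ATF3, 1.34 for CHAC1, 0.26 for GARS1, 0.94 for SLC6A9, 1.37 for DNAJB9, 0.87 for ERN1 and 1.40 for GADD45A. It was 0.83 for RPL12, 0.36 for RPL36 and 0.67 for EIF1, a start-codon selection factor gene that rose by 0.65 ± 0.11 on average. DDIT4-AS1 had 0.34 and MXI1 0.67. NFIL3 and NPAS2 had 1.25 and 0.67, and RRAGD 2.14. In H1703 SLC6A9 (0.00), CHAC1 (0.91) and GARS1 (0.63) were below HCC827 (1.83, 2.80 and 1.10), so a positive difference does not place both responsive lines above both others. SARS1 (-0.03), EIF4EBP1 (-0.02) and ASNS (0.29) did not pass this test.

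Other rises with a positive difference were KIF21B (0.99), UNC13A (2.01), IL1RL1 (3.79), IGFN1 (2.24), MGLL (3.37), MYCL (1.64), CD274 (1.30), MALAT1 (1.95), NEAT1 (1.66) and ANKRD1 (2.88). HDAC5 had 0.55 and HDAC4 -0.56. KRT4 had 1.09, a fall that was smaller in the responsive lines on this scale, but both of these lines had few KRT4 reads with vehicle, where the scale understates change.

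In the opposed genes the difference was -2.50 for ITPKA, -1.77 for OTOGL, -2.66 for APOBEC3B and -2.16 for B4GALNT1. WNT7B, SDC2, ADRB1 and KLLN did not pass this test, since H460 and H1703 moved in opposite directions.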

How the results depend on the processing

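Of 98 named genes tested for an average change, all 98 kept direction and call with no filter, with a filter at 2 above the lowest value, with quantile normalisation and with neither trend nor robust settings. Without H1703 12 lost their call and without H460 6 did, and HDAC7 reversed with median centring (-0.06) and without H441 (-0.01). With a fit of 8 group means, in which differences between lines do not enter the error, 4418 genes were called higher and 4013 lower. With the line as the unit, 0 genes were called in either direction and 0 were common. Median centring gave 1610 higher genes, of which the common set held 528. It also moved the median of all genes by -0.113, and quantile normalisation by -0.0715. With centring 7 unfolded protein response genes were higher, and 16 complex I and 13 TCA cycle genes lower. Without H460 1644 genes were higher, and without H1703 1346 were higher, 1309 lower and 3836 differed among lines. The common set held 1285 higher genes without HCC827, 1593 higher and 1702 lower without H441, and 121 and 92 when each line had to pass its own test. Leaving out 1 library at a time gave 2019 to 2671 higher and 1967 to 2508 lower genes, 826 to 1027 and 913 to 1148 common ones, and 6437 to 7790 that differed among lines. Genes with few reads were limited by counting error.

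With the replicate number as a block, 1655 genes were called higher and 1596 lower. Within lines, libraries of the same number correlated at 0.0136 to 0.0319 in their deviations from the group means, so the numbers were not taken to pair the libraries. Under the block SLC6A9 (adjusted p = 0.0699), TOMM40 (0.0535) and HLA-B (0.0593) lost their calls.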

Other observations

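The direction of the average change went with the level of expression. The tested genes were cut into 5 bins of equal size by mean level. In the highest bin 15.4% were called higher and 26.6% lower, with a median change of -0.07. In the lowest bin, where counting error is largest, 2.75% were higher and 0.897% lower, with a median of 0.13. In the middle bin 13% were higher and 6.28% lower. With each library centred on its median, the highest bin had 409 higher and 1688 lower genes and the middle bin 430 and 442, so the excess of rises at middle levels depends on the scaling.

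Types of gene differed in the same way. Protein-coding genes were called higher in 13.8% and lower in 14.5% of 14656 cases. Long intergenic RNAs were higher in 7.26% and lower in 2.17% of 1473. Transcribed unprocessed pseudogenes, copies of genes that are still transcribed, were higher in 15.9% and lower in 1.8% of 333, and RNAs of the class processed transcript, which lack a reading frame, in 12.7% and 2.31% of 260. With median centring the pseudogenes had 38 higher and 9 lower calls and the processed transcripts 30 and 12, while long intergenic RNAs had 69 and 57. Whether depth or level accounts for these shares was not tested.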
